A study of Mus musculus with 12 samples.

Results

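Genes of the TGF-beta, Nodal and BMP signaling pathways were followed at the level of RNA and of ribosome-protected footprints in mouse embryos with reduced function of the ribosomal protein RPL10A/uL1. The list held 44 genes, taken by name for their place in these pathways, of 22467 transcripts in the count tables, where each gene is represented by 1 transcript. The rule uses no measured value, but this list and the other gene lists below were chosen with earlier results of these data known. Whole embryos at embryonic day 8.5 on a C57BL/6 background were compared, 3 wild-type (WT) and 3 Rpl10a LOF/LOF. Each embryo was lysed singly, with no pooling, in the presence of cycloheximide, and gave both a footprint (RPF) library and an RNA-seq (RNA) library. The LOF allele is a deletion in the first intron of Rpl10a that leads to intron retention and adds amino acids after the first methionine of the protein. The altered protein still enters ribosomes, and the study describes the allele as hypomorphic. The allele is not restricted to a tissue. Every cell type of the embryo, and the visceral endoderm that surrounds it, contributed to each value. The question was how RPF, RNA and their ratio, the translation efficiency (RPF/RNA), of the pathway genes differed between LOF/LOF and WT embryos.

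TGF-beta superfamily ligands are secreted dimers that bring together type I and type II serine/threonine kinase receptors. The activated type I receptor phosphorylates receptor-regulated SMADs, of which SMAD2 and SMAD3 serve TGF-beta, Activin and Nodal and SMAD1, SMAD5 and SMAD9 serve BMPs. These join the common partner SMAD4 and move to the nucleus. Secreted antagonists, inhibitory SMADs, ubiquitin ligases and nuclear corepressors limit the signal. In the gastrulating and early somite-stage mouse, Nodal patterns the anterior-posterior and left-right axes, while BMPs act in the allantois, the germ cells, the heart field and the lateral mesoderm.

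RPF libraries held 7041357 to 10863499 counts and RNA libraries 9132521 to 26561843. Levels are given as CPM, counts scaled to a common library size after TMM normalization. The RPF of Rpl10a itself was 1562, 1611 and 1679 in WT and 1125, 1040 and 940 in LOF/LOF (log2 fold change -0.64, SE 0.07, edgeR FDR 0.00689). Its RNA fell by 0.23 on the log2 scale (SE 0.06, edgeR FDR 0.0678). The genotypes also differed in sex and in cell type markers, and the part of these differences in the values below was not tested. The sum of Y-linked genes was 163 to 183 CPM of RPF in the WT embryos and 154 in LOF replicate 2, but 9.09 and 0.384 in LOF replicates 1 and 3. The summed RPF of visceral endoderm markers was 7253 to 9432 CPM in WT and 2933 to 5577 in LOF/LOF, with 11 of 14 tested markers called lower, and 1 further marker, Apoc2, at 0 in all RPF libraries. Heart markers summed to 589 to 685 CPM in WT and 805 to 956 in LOF/LOF, with 3 of 6 called higher. Primitive erythroid markers summed to 839 to 2822 CPM against 3517 to 5793, with 3 of 8 called higher, and presomitic and paraxial mesoderm markers to 130 to 143 against 100 to 116, with 2 of 6 called lower. For each of these 4 sums the exact permutation test gave p = 0.1, the smallest possible with 3 against 3 embryos (two-sided). Sums for endothelial, neural, allantois and decidua markers overlapped between the genotypes, and the same exact permutation test of their means gave p = 0.7, 0.7, 0.7 and 1. The LOF/LOF embryos lay on both sides of WT. Allantois markers summed to 239, 203 and 234 CPM in WT and 128, 280 and 346 in LOF/LOF. Endothelial markers summed to 472, 481 and 462 CPM in WT and 428, 500 and 585 in LOF/LOF. In whole embryos, fewer cells of a type and less RNA per cell cannot be told apart.

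Of the 44 genes, 38 were above the level at which transcripts were tested, 0.75 CPM in at least 3 RPF libraries, and each of the 38 exceeded 0.75 CPM in all 6. The other members, Nodal, Gdf3, Tgfb3, Inhba, Lefty1 and Lefty2, were counted too rarely in RPF to be tested. Nodal, the ligand of the primitive streak and node, had 2, 3 and 1 RPF counts in WT and 2, 3 and 4 in LOF/LOF. Lefty1 and Lefty2, secreted Nodal inhibitors whose near-identical sequences make the split of reads between them uncertain, had at most 1 RPF count in any library. Gdf3, a Nodal-related ligand, had 0 to 3 RPF counts, and Inhba, an Activin subunit, had 0 to 5. Tgfb3 was the best counted of this group, with 6, 6 and 5 RPF counts in WT and 10, 6 and 14 in LOF/LOF. In RNA, WT replicate 1 stood above the other embryos for Nodal (0.677 CPM, against 0.241 to 0.322 elsewhere), Lefty1 (0.79 against 0.101 to 0.269), Lefty2 (1.69 against 0.337 to 0.604) and Gdf3 (0.451 against 0 to 0.256). These RNA values rested on 4 to 15 counts per gene in that embryo.

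Among the 38 tested genes, 2 differed between the genotypes at an FDR below 0.1 by edgeR, each in a single measurement. The RPF of Tdgf1, the Nodal co-receptor Cripto, was higher in LOF/LOF, and the RNA of Tgfb2, the ligand TGF-beta 2, was higher in LOF/LOF. The 1 called gene in RPF compares with 2.19% of all 12576 tested transcripts, the 1 in RNA with 5.02%, and the 0 in RPF/RNA with 0%. At an unadjusted p below 0.05 by edgeR, there were 6 members in RPF (13.7% of all transcripts), 8 in RNA (17%) and 6 in RPF/RNA (4.44%). As shares of the members these were 15.8%, 21.1% and 15.8%. The RPF values of the genotypes did not overlap for 6 members, 15.8% of the 38, where 19.4% of all transcripts showed this. RNA values did not overlap for 5 members, 13.2% against 22.8%, and RPF/RNA values for 8, 21.1% against 12%. The median log2 fold change of the members was -0.03 in RPF, 0.03 in RNA and -0.05 in RPF/RNA, beside medians of 0.00, 0.00 and 0.01 over all transcripts. Apart from Tdgf1 most differences were small, with median absolute log2 fold changes of 0.12 in RPF and 0.09 in RNA, the same values as over all transcripts.

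**Figure D1:**
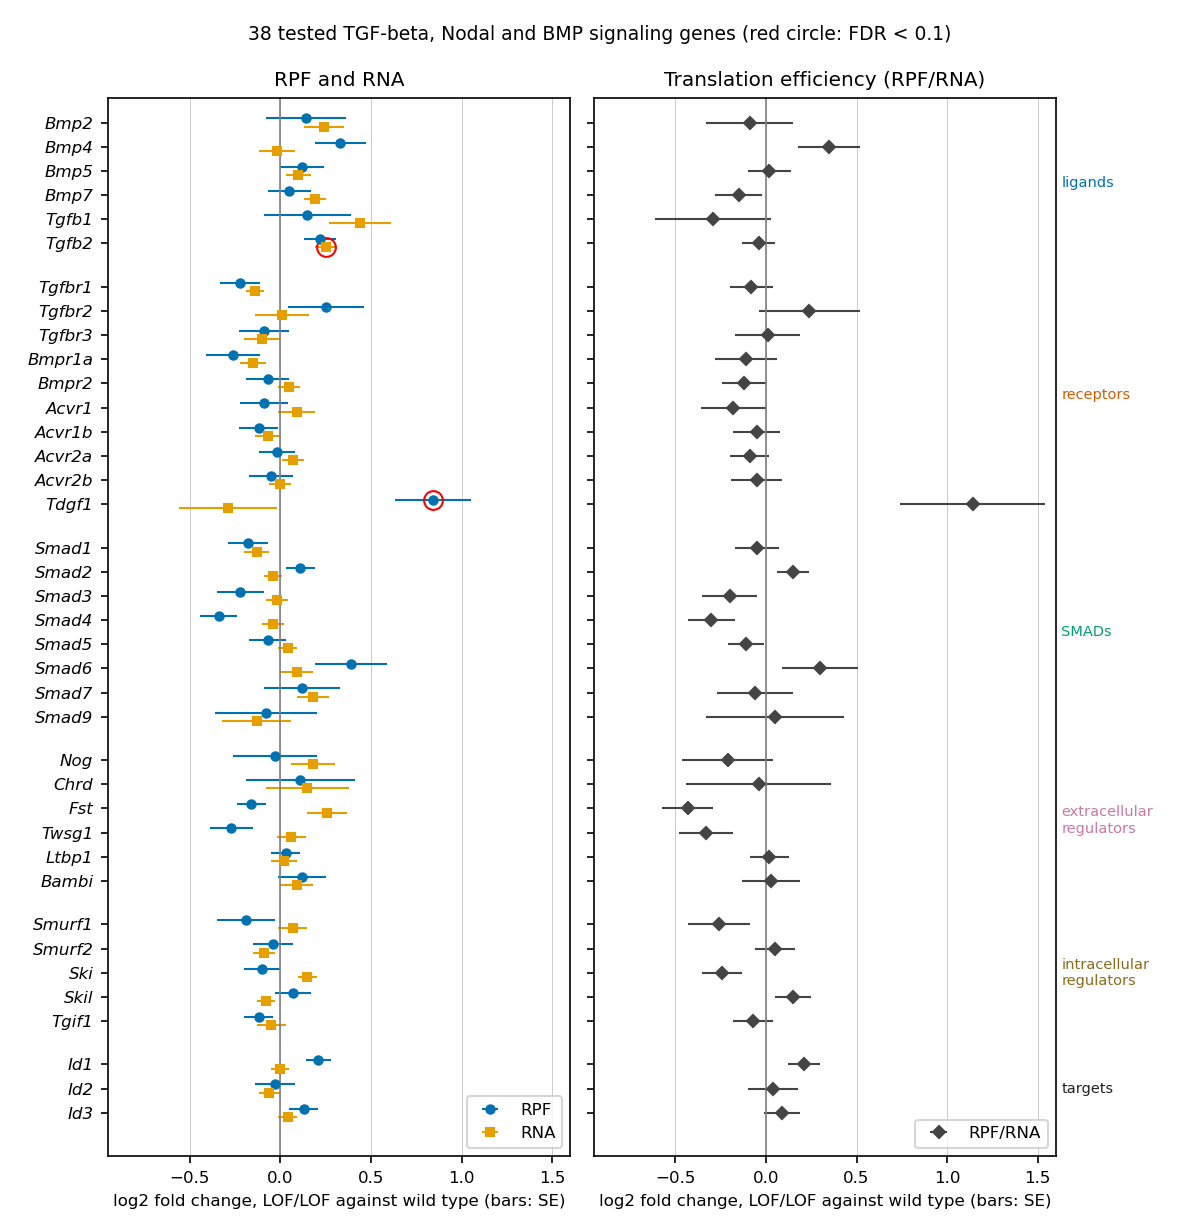
Log2 fold changes of LOF/LOF against WT embryos for the 38 tested genes, grouped by role, with RPF (circles) and RNA (squares) on the left and RPF/RNA (diamonds) on the right, bars showing the SE and red circles an FDR below 0.1. Tdgf1 lies farthest to the right in RPF and in RPF/RNA, at 0.84 and 1.14, and the 6 ligands all lie above 0 in RPF.

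Ligand fold changes were mostly positive among the members, with 0 of 6 called in RPF and 1 in RNA. All 6 tested ligands had a positive RPF fold change, with a median log2 value of 0.15, and 5 of 6 had a positive RNA fold change, with a median of 0.22, whereas 50.9% and 49.4% of all transcripts were higher in RPF and RNA. Of the 7 tested ligands of a wider pathway list, 4 were higher in RPF (median 0.07) and 3 in RNA (median -0.09). Tgfb2, a ligand of heart valve and craniofacial development, had RNA levels of 44.8, 45.0 and 43.6 CPM in WT and 54.6, 53.0 and 51.2 in LOF/LOF. Every LOF/LOF embryo exceeded every WT embryo, and the log2 fold change was 0.25 (SE 0.06, edgeR FDR 0.0486). This call was lost with a covariate for the Y-linked genes (FDR 0.416), with the replicate block (FDR 0.102) and on leaving out any embryo except LOF replicate 3 (FDR 0.112 to 0.16), while the fold change stayed between 0.23 and 0.28. Its RPF was 34.0, 35.9 and 33.7 CPM in WT and 40.4, 37.8 and 41.9 in LOF/LOF, again without overlap (log2 fold change 0.22, SE 0.09, edgeR unadjusted p = 0.0303, FDR 0.3). RPF and RNA of Tgfb2 thus moved by a similar amount in the main fit, and its RPF/RNA differed by -0.04 (SE 0.09). With the Y-linked covariate the log2 fold changes were 0.13 in RPF and 0.27 in RNA.

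Bmp4, the BMP of the extraembryonic ectoderm, allantois and lateral mesoderm, differed more in RPF than in RNA. Its RPF was 12.7, 12.8 and 10.4 CPM in WT and 12.8, 15.2 and 16.6 in LOF/LOF (log2 fold change 0.33, SE 0.14, edgeR unadjusted p = 0.0409, FDR 0.337). LOF replicate 1 lay just at the upper WT values, so that the separation rested on a narrow margin. Its RNA was 35.4, 30.9 and 33.0 CPM in WT and 28.4, 36.0 and 33.1 in LOF/LOF, with no separation (log2 fold change -0.02, SE 0.10). The RPF/RNA of Bmp4 did not overlap between the genotypes (log2 fold change 0.35, SE 0.17, edgeR unadjusted p = 0.0602).

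For 3 further ligands the RNA was nominally higher. Bmp7, broadly expressed in the early embryo, had RNA of 40.9, 42.2 and 42.9 CPM in WT and 50.3, 46.9 and 46.7 in LOF/LOF, without overlap (log2 fold change 0.19, SE 0.06, edgeR unadjusted p = 0.0114, FDR 0.15). Its RPF was 22.4, 23.1 and 21.6 CPM in WT and 23.9, 25.8 and 19.7 in LOF/LOF, with the LOF/LOF embryos on both sides of WT. Bmp2, a ligand of the early heart and extraembryonic mesoderm, had RNA of 26.2, 25.3 and 32.5 CPM against 30.5, 33.9 and 35.5 (log2 fold change 0.24, SE 0.11, edgeR unadjusted p = 0.0476, FDR 0.285). Without WT replicate 3 it was 0.37 and called (FDR 0.0996). Its RPF, at 7.31, 6.67 and 6.88 CPM in WT, was 4.81, 9.43 and 8.46 in LOF/LOF, on both sides of the WT range. Tgfb1, expressed in blood and endothelial lineages, had RNA of 7.45, 9.86 and 9.40 CPM in WT and 9.59, 12.4 and 15.8 in LOF/LOF (log2 fold change 0.44, SE 0.17, edgeR unadjusted p = 0.029, FDR 0.227). It was 0.27 without LOF replicate 3, and 0.60 and called without LOF replicate 1 (FDR 0.0918). Its RPF was 6.40, 9.13 and 7.30 CPM against 5.39, 8.15 and 11, fully overlapping. In RNA, primitive erythroid markers summed to 675, 405 and 1703 CPM in WT and 1523, 2552 and 1809 in LOF/LOF, overlapping. Endothelial markers summed to 384, 380 and 382 CPM of RNA in WT and 350, 411 and 487 in LOF/LOF. The part of either cell type in the Tgfb1 values was not tested. Bmp5 was the remaining tested ligand, with log2 fold changes of 0.12 in RPF and 0.10 in RNA, each near its SE (0.12 and 0.07).

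The 10 receptor genes were split between Tdgf1 and the kinase receptors. Tdgf1 encodes a small membrane-anchored protein through which Nodal engages its receptors. Its RPF was 3.57, 3.16 and 3.65 CPM in WT and 8.02, 5.12 and 5.80 in LOF/LOF, and all LOF/LOF embryos lay above WT. The log2 fold change was 0.84 (SE 0.21, edgeR FDR 0.0986), the largest of the 38 genes. These values rested on 27 to 39 counts in WT and 44 to 61 in LOF/LOF. Its RNA was 13.8, 6.33 and 6.26 CPM in WT and 7.18, 5.89 and 7.18 in LOF/LOF. WT replicate 1 had more Tdgf1 RNA than the other WT embryos added together, without a matching rise in its RPF, and it was the same library in which Nodal and Lefty2 were highest. The other WT embryos and the LOF/LOF embryos lay close together, and the RNA fold change of -0.29 was within about its SE (0.27). RPF/RNA was therefore lower in WT replicate 1 than in any other embryo, and its fold change of 1.14 had a wide SE of 0.40 (edgeR unadjusted p = 0.013, FDR 1). The RPF call lay close to the threshold and was lost with DESeq2 (adjusted p = 0.178), limma-voom (adjusted p = 0.105), a filter by filterByExpr (FDR 0.1) and the covariate for Y-linked genes (FDR 0.619). It was also lost on leaving out any embryo except LOF replicate 2 (FDR 0.172 to 0.356 when lost, 0.0252 without LOF replicate 2), with the fold change between 0.65 and 0.96. Tdgf1 has processed pseudogenes, Tdgf1-ps1 and Tdgf1-ps2, and reads shared with them could not be separated.

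Of the kinase receptors and the co-receptor Tgfbr3, 8 of 9 had a negative RPF fold change, most of them within their SE, and none was called. The wider list had 3 of 6 receptors lower in RPF (median 0.00). Tgfbr1, the type I TGF-beta receptor, had RPF of 78.2, 83.2 and 84.2 CPM in WT and 58.9, 81.1 and 69.9 in LOF/LOF. LOF replicate 2 lay within the WT range and the others below it (log2 fold change -0.22, SE 0.11, edgeR unadjusted p = 0.0574, FDR 0.387). It was -0.12 without LOF replicate 1, -0.09 with the Y-linked covariate (FDR 0.913), and -0.34 and called without LOF replicate 2 (FDR 0.041). Its RNA was 278, 283 and 276 CPM in WT and 255, 261 and 243 in LOF/LOF. The RNA values did not overlap, although the difference was small (log2 fold change -0.14, SE 0.05, edgeR unadjusted p = 0.012, FDR 0.154). Bmpr1a, the BMP type I receptor needed for mesoderm formation, had RPF of 50.8, 50.3 and 47.2 CPM in WT and 32.8, 53.2 and 37.3 in LOF/LOF. LOF replicate 2 lay above all WT embryos and the others below them (log2 fold change -0.26, SE 0.15, edgeR unadjusted p = 0.101, FDR 0.476). Its RNA was 341, 335 and 318 CPM against 321, 302 and 269 (log2 fold change -0.15, SE 0.07, edgeR unadjusted p = 0.0412, FDR 0.27), with a difference of -0.09 without LOF replicate 3. For Tgfbr2, Tgfbr3, Bmpr2, Acvr1, Acvr1b, Acvr2a and Acvr2b the genotypes overlapped in RPF and in RNA. Their RPF log2 fold changes ran from -0.12 for Acvr1b to 0.25 for Tgfbr2, the type II TGF-beta receptor, the only kinase receptor with a positive value. The transcript of Acvr2a overlaps Orc4 on the opposite strand, also a row of the tables. Summed over the 10 receptor genes, RPF was 329, 328 and 329 CPM in WT and 264, 335 and 308 in LOF/LOF.

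Among the SMADs, Smad4 showed the clearest lower RPF. Smad4 encodes the common SMAD of all branches. Like Tgfbr1, it was among the mRNAs that the study measured in pull-downs of tagged ribosomes from human sclerotome. Those mRNAs were either less translated in LOF/LOF embryos or controls without a change in the ribosome profiling. The RPF of Smad4 was 96.3, 96.1 and 94.3 CPM in WT and 65.6, 89.3 and 70.9 in LOF/LOF. The WT values were close together, and all LOF/LOF embryos lay below them, LOF replicate 2 by the least (log2 fold change -0.34, SE 0.10, edgeR unadjusted p = 0.00695, FDR 0.169). Its RNA was 222, 223 and 200 CPM in WT and 219, 210 and 196 in LOF/LOF, overlapping (log2 fold change -0.04, SE 0.06). The RPF/RNA of Smad4 was lower in every LOF/LOF embryo, though in LOF replicate 2 by only a narrow margin, at -0.06 on the log2 scale beside -0.05 in WT replicate 2 (log2 fold change -0.30, SE 0.13, edgeR unadjusted p = 0.033, FDR 1). The difference did not pass the FDR threshold here, but did so with limma-voom and surrogate variables (adjusted p = 0.00626, log2 fold change -0.30) and without LOF replicate 2 (FDR 0.00248, log2 fold change -0.48). With the Y-linked covariate the RPF difference shrank to -0.15 (FDR 0.806) and that of RPF/RNA to -0.14, and without LOF replicate 1 they were -0.26 (FDR 0.26) and -0.18.

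The other SMADs did not separate between genotypes in either measurement. Smad3, the TGF-beta and Nodal effector, had RPF of 40.2, 40.6 and 39.4 CPM in WT and 29.6, 42.9 and 30.5 in LOF/LOF. Unlike for Smad4, LOF replicate 2 lay above all WT embryos and the others below them (log2 fold change -0.22, SE 0.13). Smad2, which shares the same upstream receptors, had RPF of 78.2, 71.7 and 76.6 CPM against 86.6, 82.7 and 75 (log2 fold change 0.11, SE 0.08). The BMP effectors Smad1, Smad5 and Smad9 had RPF log2 fold changes of -0.18, -0.07 and -0.08. The inhibitory SMADs Smad6 and Smad7, which BMP and TGF-beta signals are known to induce, had 0.39 (SE 0.20) and 0.12 (SE 0.21). RNA log2 fold changes of all 8 SMADs lay between -0.13 and 0.18.

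The secreted and membrane regulators had 3 of 6 genes lower in RPF and 0 lower in RNA, where fold changes ran from 0.02 to 0.26 on the log2 scale with 0 called. In the wider list 7 of 14 antagonists were higher in RNA (median 0.01). Fst encodes follistatin, which binds Activin and some BMPs. Its RNA was 28.8, 29.1 and 31.1 CPM in WT and 41.7, 31.1 and 34.0 in LOF/LOF, with WT replicate 3 and LOF replicate 2 equal to 3 digits and LOF replicate 1 well above the rest (log2 fold change 0.26, SE 0.11, edgeR unadjusted p = 0.0327, FDR 0.241). Its RPF moved the other way, at 45.1, 49.0 and 51.6 CPM in WT and 42.4, 44.2 and 43.5 in LOF/LOF, without overlap (log2 fold change -0.16, SE 0.08, edgeR unadjusted p = 0.0819). The RPF/RNA of Fst was thus lower in all LOF/LOF embryos (log2 fold change -0.43, SE 0.14), and its edgeR unadjusted p of 0.0079 was the smallest of the members in RPF/RNA (FDR 1). Without LOF replicate 1 the RNA difference was 0.12 and that of RPF/RNA -0.27, and with the Y-linked covariate they were 0.11 and -0.26. Without LOF replicate 2 the RNA difference was 0.36 and was called (FDR 0.093).

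Twsg1, a secreted BMP-binding protein that acts with chordin, had RPF of 40.8, 41.1 and 43.1 CPM in WT and 31.3, 41.9 and 30.3 in LOF/LOF. LOF replicates 1 and 3 lay below WT, while LOF replicate 2 lay within the WT range (log2 fold change -0.27, SE 0.12, edgeR unadjusted p = 0.0472, FDR 0.355). Its RNA was 29.5, 26.4 and 26 CPM in WT and 28.0, 26.8 and 30.6 in LOF/LOF, without separation. RPF/RNA was lower by 0.33 (SE 0.15, edgeR unadjusted p = 0.0468), but with the Y-linked covariate this difference became 0.01 and that of RPF -0.02. Without LOF replicate 2 the differences were -0.54 in RPF/RNA and -0.43 in RPF (FDR 0.015), and without LOF replicate 3 they were -0.19 and -0.18. The BMP antagonists Nog and Chrd were weakly expressed, at 3.11 to 4.80 CPM and 1.65 to 3.75 CPM of RPF across the embryos, and the genotypes overlapped. The Chrd transcript overlaps Thpo on the opposite strand, which the tables also list. Ltbp1, a matrix protein that holds latent TGF-beta, and Bambi, a kinase-less pseudoreceptor, had RPF log2 fold changes of 0.03 (SE 0.08) and 0.12 (SE 0.13). Bambi has a pseudogene copy, Bambi-ps1.

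Intracellular regulators were lower in RPF for 4 of 5 genes, none with an unadjusted p below 0.05. Ski, a nuclear corepressor of SMAD complexes, had RNA of 148, 164 and 157 CPM in WT and 175, 166 and 180 in LOF/LOF, without overlap (log2 fold change 0.15, SE 0.05, edgeR unadjusted p = 0.0197, FDR 0.195). Its RPF was 44.9, 44.9 and 45.6 CPM in WT and spread from 37.7 to 47.9 in LOF/LOF (37.7, 40.4 and 47.9). RPF/RNA was lower in all LOF/LOF embryos (log2 fold change -0.24, SE 0.11, edgeR unadjusted p = 0.0429, FDR 1). With the Y-linked covariate the RNA difference of Ski was 0.08 (FDR 0.88) and that of RPF/RNA -0.31. Skil, a relative of Ski, had small values of the opposite sign, 0.07 in RPF and -0.08 in RNA, each near its SE. The ubiquitin ligases Smurf1 and Smurf2, which mark receptors and SMADs for degradation, had RPF log2 fold changes of -0.19 (SE 0.16) and -0.04 (SE 0.11). Tgif1, a homeodomain corepressor and the most RPF-dense of these genes, had RPF of 72.9, 70.5 and 64.7 CPM in WT and 67.6, 65 and 59.3 in LOF/LOF (log2 fold change -0.12, SE 0.08). Its RNA was 64.0, 55.3 and 57.5 CPM against 61.2, 55.6 and 51.8, and the genotypes overlapped in both. A pseudogene, Tgif1-ps, is annotated.

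The targets on the list were the Id genes, direct transcriptional targets of BMP and SMAD1/5 that encode inhibitors of basic helix-loop-helix factors. Their RNA did not separate the genotypes, with log2 fold changes of 0.00, -0.06 and 0.04 for Id1, Id2 and Id3, each with an SE of 0.05 or 0.06. The RPF of Id1 was 126, 125 and 125 CPM in WT and 159, 137 and 140 in LOF/LOF. All LOF/LOF embryos lay above a very narrow WT range (log2 fold change 0.21, SE 0.07, edgeR unadjusted p = 0.0155, FDR 0.234). Its RNA, at 98.2, 88.6 and 94.4 CPM against 92, 96.9 and 91.4, overlapped fully, so that RPF/RNA was higher in LOF/LOF (log2 fold change 0.21, SE 0.09, edgeR unadjusted p = 0.0371, FDR 1). The separation in RPF/RNA was narrow, with WT replicate 2 and LOF replicate 2 both at 0.08 relative to the WT mean on the log2 scale. Without LOF replicate 1 the differences were 0.14 in RPF and 0.13 in RPF/RNA. With the Y-linked covariate they were 0.18 and 0.13, and with limma-voom and surrogate variables 0.19 and 0.13. Id3, the member with the highest RPF level, had RPF of 222, 247 and 208 CPM in WT and 263, 231 and 247 in LOF/LOF, with overlap (log2 fold change 0.13, SE 0.08). Its RNA was 167, 173 and 181 CPM against 187, 170 and 176. Id2 ranged from 169 to 191 CPM of RPF in WT and from 146 to 202 in LOF/LOF. Thus no Id transcript changed past the threshold in RNA, RPF or RPF/RNA.

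**Figure D2:**
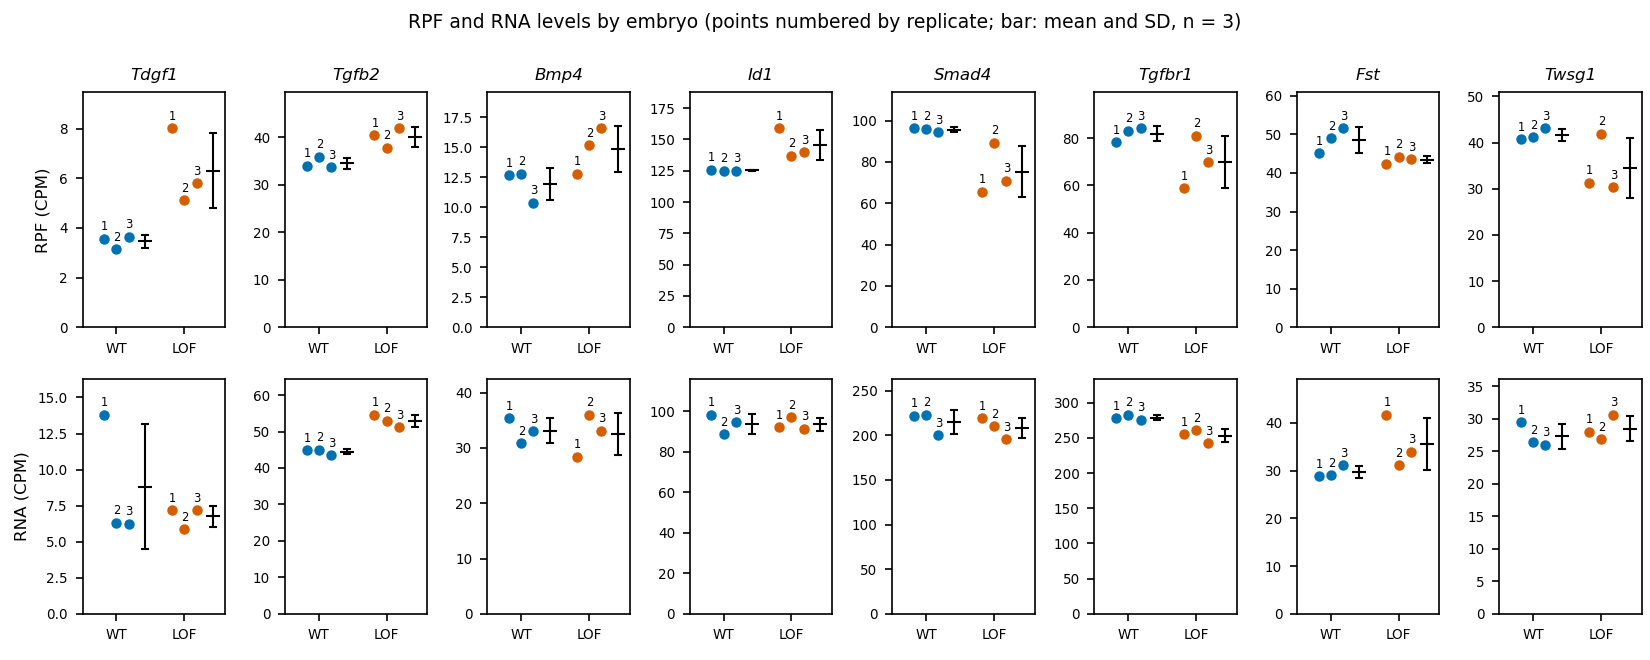
RPF (upper row) and RNA (lower row) in CPM of 8 members in each embryo, points numbered by replicate, with the mean and SD of 3 embryos at the right of each group. LOF replicate 2 lies at or near the WT values in RPF for Smad4, Tgfbr1 and Twsg1, and WT replicate 1 stands alone in Tdgf1 RNA.

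Translation efficiency was compared as the genotype by library interaction over all 12 libraries. None of the 38 genes, and none of the 12576 transcripts, passed an FDR of 0.1 by edgeR, the smallest FDR over all transcripts being 0.974. DESeq2 and limma-voom likewise called 0 of the members, and 4 and 0 of all transcripts. The 6 members with an unadjusted p below 0.05 were Tdgf1 and Id1, which were higher, and Fst, Smad4, Twsg1 and Ski, which were lower. All of these but Twsg1 were without overlap between the genotypes, as were Bmp4 (higher), Tgfb1 and Smurf1 (lower), with edgeR unadjusted p of 0.0602, 0.382 and 0.141. RPF and RNA libraries of the same embryo deviated together. With the embryo as a block 8 members and 873 transcripts reached an unadjusted p below 0.05 by edgeR, against 6 and 559 without it. In either fit 0 were called. With the Y-linked covariate these counts were 2 and 292, and with limma-voom and surrogate variables 3 and 580. Leaving out each embryo in turn gave 2 to 8 members and 295 to 1314 transcripts at this p, with 0 members called.

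**Figure D3:**
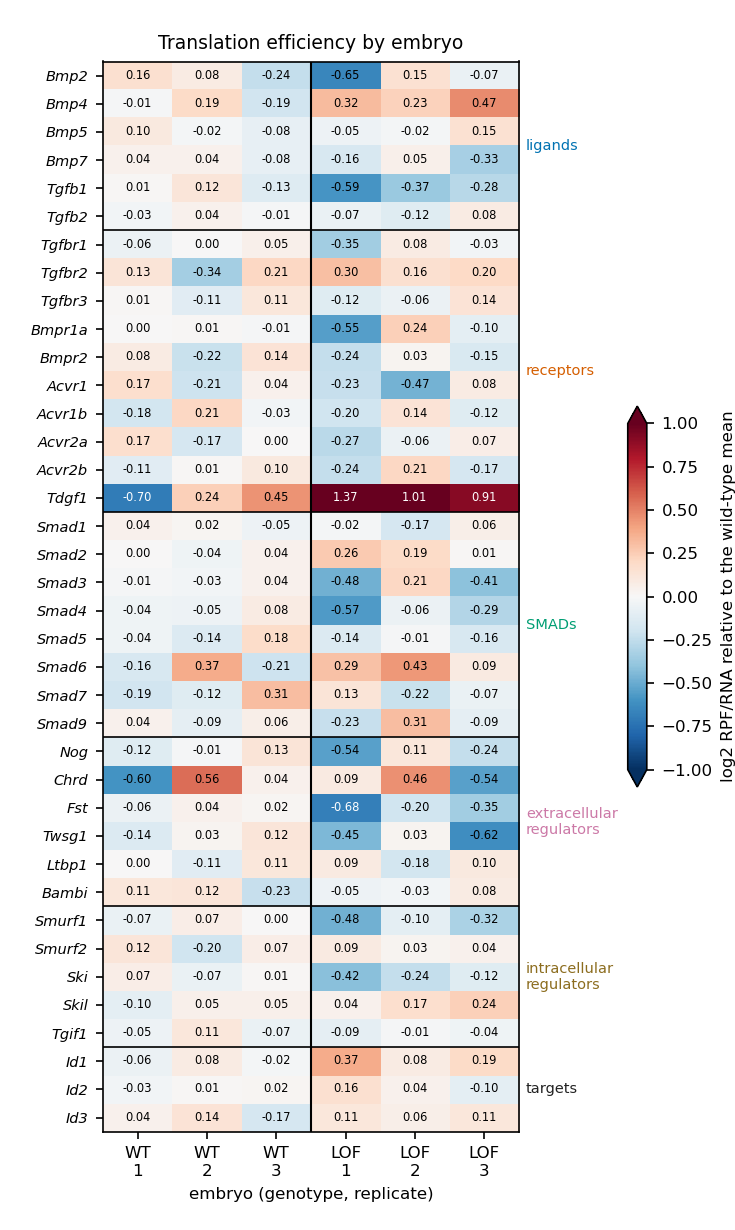
Log2 RPF/RNA of the 38 tested genes in each embryo relative to the mean of the WT embryos, from blue (lower) to red (higher), with the value printed in each cell. Tdgf1 ranges from -0.70 in WT replicate 1 to 1.37 in LOF replicate 1, and Fst is lower in all LOF/LOF embryos, at -0.68, -0.20 and -0.35.

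In RPF, LOF replicate 2 stood nearer to WT than the other LOF/LOF embryos for several members. The median absolute log2 difference of the 38 genes from the WT mean in RPF was 0.20 in LOF replicate 1, 0.12 in LOF replicate 2 and 0.18 in LOF replicate 3. In RNA the same measure was 0.08, 0.09 and 0.15 in LOF replicates 1, 2 and 3, and in RPF/RNA 0.24, 0.14 and 0.13, so that LOF replicate 2 was not the nearest there. LOF replicate 2 was also the LOF/LOF embryo with the Y-linked signal of the WT embryos, and it had the highest visceral endoderm sum of the LOF/LOF embryos, 5577 CPM of RPF against 3903 and 2933. In primitive erythroid markers it was the farthest from WT, with a sum of 5793 CPM against 3555 and 3517, and in presomitic and paraxial markers it lay beside LOF replicate 3 (100 CPM) and farther from WT than LOF replicate 1 (116). Without it, 7 members were called in RPF, Tdgf1 and Id1 higher and Tgfbr1, Bmpr1a, Smad3, Smad4 and Twsg1 lower, where 11.5% of all transcripts were called. With limma-voom and surrogate variables 5 members were called, Tdgf1 and Id1 higher and Tgfbr1, Smad4 and Twsg1 lower, where 10.4% of all transcripts were called. The study's methods name voom, limma and sva, so this setting is the nearest to its own, although its locfdr step was not run. With the Y-linked covariate 0 members were called in RPF, and 0.175% of all transcripts. LOF replicate 2 is the only LOF/LOF embryo with the Y-linked signal, so that this adjustment rests on that embryo.

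In WT embryos the members covered a wide range of levels. Per kilobase of counted coding sequence, the highest RPF of each role was 29.1 CPM for Tgfb2 among the ligands, 56.4 for Tgfbr1 among the receptors and 59.9 for Smad4 among the SMADs. For the remaining roles it was 68.4 for Twsg1, 91.4 for Tgif1 and 752 for Id3. Id3, Id2 and Id1 lay at the 98.3, 97.4 and 95.8 percentiles of RPF per kilobase over all tested transcripts, whereas Chrd lay at the 6.37 percentile. Smad4, Bmpr1a, Tgfbr1 and Acvr2b were high in RNA per kilobase, at the 91.3, 89.8, 87.6 and 87.6 percentiles, but only at the 79.8, 68.6, 78.9 and 65.3 percentiles in RPF per kilobase.

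The ratio of RPF per kilobase to RNA per kilobase, on the log2 scale and averaged over the WT embryos, had a median of 0.21 over the 38 genes and 0.75 over 12570 transcripts. It ran from -2.48 (SD 0.32) for Smad6 to 2.59 (SD 0.03) for Id2. Smad2 (2.44), Id3 (2.47), Twsg1 (2.21), Tgfb2 (1.75) and Id1 (1.70) were also high, and Smurf2 (-1.83), Acvr2b (-0.81), Bmpr1a (-0.79), Smad7 (-0.78) and Bmpr2 (-0.76) were low. Smad2 and Smad3, which encode closely related effectors, lay far apart, at 2.44 (SD 0.04) and 0.53 (SD 0.03). RNA was counted over the whole transcript model and RPF over coding sequence, so the ratio also carries any error in the model's untranslated regions.

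**Figure D4:**
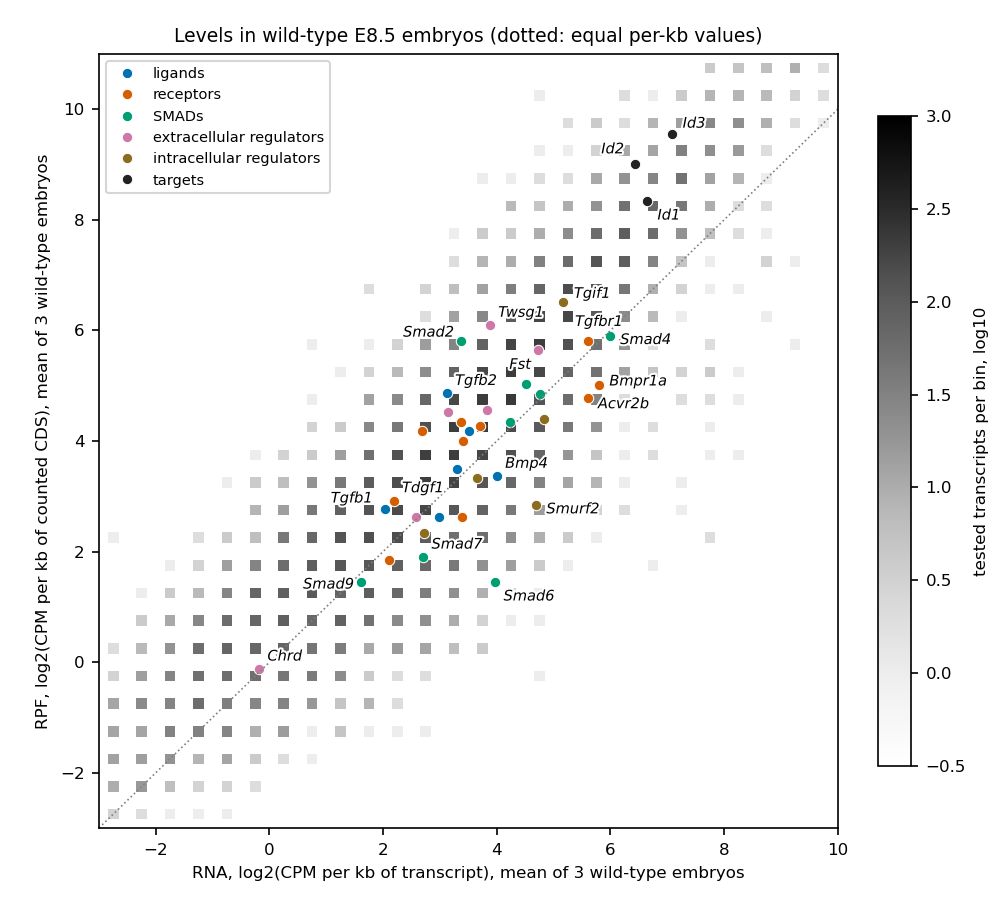
RNA per kilobase of transcript against RPF per kilobase of counted coding sequence, both log2 CPM and means of 3 WT embryos, for the 38 genes coloured by role over all tested transcripts (grey squares, darker with more transcripts). Smad6 and Smurf2 lie below the dotted line of equal values, and Id2, Id3, Smad2 and Twsg1 lie well above it.

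The start codons of the 2 called genes, of members toward both ends of this range and of Tgfbr1, which lies near the members' median (0.22), are shown, since the bases around a start codon and any ATG upstream of it are known to bear on how often ribosomes initiate there. Each run holds 9 bases before and 3 bases after the annotated start codon, which is in capitals, in the spliced transcript of GENCODE M21 (GRCm38).
Tdgf1: ccgtcgaagATGggg
Tgfb2: tttaaaaacATGcac
Twsg1: tgaagaaccATGaag
Id1: ctcaggatcATGaag
Id2: acgagcagcATGaaa
Tgfbr1: ggcgggaccATGgag
Bmpr1a: aatcagacaATGact
Bmpr2: ggcccagggATGact
Smurf2: gctggggacATGtct
Smad6: gggtatcgtATGttc
The start codons lie at chr9:110945841-110945843 (Tdgf1, minus strand), chr1:186704772-186704774 (Tgfb2, minus), chr17:65948775-65948777 (Twsg1, minus), chr2:152736341-152736343 (Id1, plus) and chr12:25096008-25096010 (Id2, minus). Those of the remaining genes lie at chr4:47353312-47353314 (Tgfbr1, plus), chr14:34447836-34447838 (Bmpr1a, minus), chr1:59764653-59764655 (Bmpr2, plus), chr11:106920230-106920232 (Smurf2, minus) and chr9:64021022-64021024 (Smad6, minus). Of these, Tdgf1 and Tgfbr1 have both a purine 3 bases before the ATG and a G right after it, the combination regarded as favourable. Among the 37 members with an annotated 5′ untranslated region (5′ UTR) of at least 20 bases, 29.7% had this combination, and among 12106 tested transcripts 45.6%. The model used for Fst has no 5′ UTR.

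Upstream ATGs, searched in the sense strand of the 5′ UTR in any frame, were found in 24 of the 37 members (64.9%) and in 51.6% of the 12106 transcripts. Smad6 and Bmpr2 each had 10, a number reached by 1.39% of transcripts, Bmp2 had 8, Skil had 7, and Bmp4, Bmp5 and Bmpr1a had 5 each. Tdgf1 had 2, Tgfb2 had 1, and Tgfbr1, Twsg1 and Id1 had 0. The 9 members with more than 3 upstream ATGs had a median log2 ratio of RPF to RNA of -0.64 in WT, beside 0.09 for all such transcripts. The 15 members with 1 to 3 had 0.57, beside 0.49 for all such transcripts, and the 13 members without any had 0.60, beside 1.04. Members with 1 to 3 upstream ATGs and members with none thus had nearly the same median, and Id2, with 13 annotated upstream ATGs, had the highest ratio of all members. These are features of the annotated models, and whether the embryos used those 5′ ends was not tested.

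**Figure D5:**
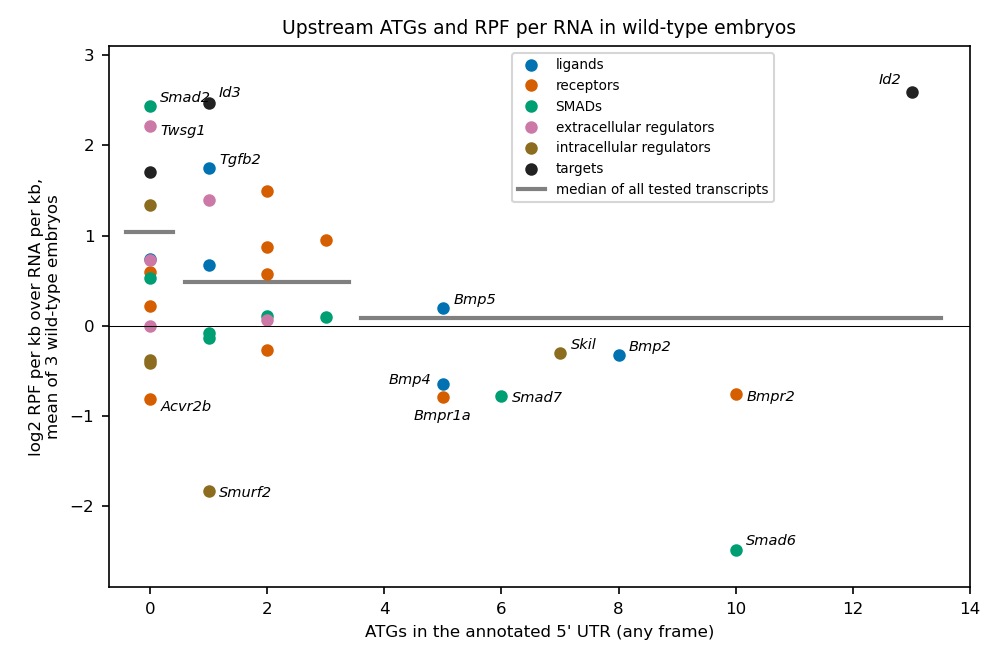
Number of ATGs in the annotated 5′ UTR against the log2 ratio of RPF per kilobase to RNA per kilobase in WT embryos (mean of 3) for 37 members coloured by role, with grey lines at the medians of all tested transcripts with 0, 1 to 3 and more than 3 upstream ATGs. Of the members with more than 3, Bmp5 and Id2 lie above their grey line and the others below it.

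A wider list of 72 further pathway genes, of which 53 were tested, gave 4 called genes. Sostdc1, a secreted BMP and Wnt antagonist, had RPF of 1.74, 1.99 and 2.29 CPM in WT and 5.39, 3.26 and 4.28 in LOF/LOF, all above WT (log2 fold change 1.09, SE 0.25, edgeR FDR 0.0791). Its RNA was 1.81, 1.57 and 2.46 CPM against 3.03, 1.86 and 3.11, overlapping. Foxh1, the DNA-binding partner of SMAD2 and SMAD3 in Nodal signaling, had higher RNA, 13.4, 13.7 and 14.3 CPM in WT and 18, 18.9 and 18.2 in LOF/LOF (log2 fold change 0.41, SE 0.08, edgeR FDR 0.0292). Hipk2, a kinase that binds SMAD corepressors, had RNA of 148, 162 and 145 CPM against 189, 196 and 187 (log2 fold change 0.33, SE 0.05, edgeR FDR 0.0165), without a rise in RPF (log2 fold change -0.20, SE 0.15). Bmp6, a ligand of extraembryonic and skeletal tissues, had lower RNA, 10.0, 10.5 and 8.72 CPM in WT and 5.74, 7.05 and 7.18 in LOF/LOF (log2 fold change -0.56, SE 0.13, edgeR FDR 0.0539). With the Y-linked covariate all 4 calls were lost (FDR 0.615 for Sostdc1, 0.219 for Foxh1, 0.113 for Hipk2 and 0.481 for Bmp6). Sostdc1 was also lost with DESeq2 (adjusted p = 0.145) and on leaving out any embryo except LOF replicate 2 (FDR 0.139 to 0.346). Bmp6 was lost without LOF replicate 1, WT replicate 1 or WT replicate 2 (FDR 0.134 to 0.169), and Foxh1 without WT replicate 1 (FDR 0.125). The wider list thus had 1 called gene of 53 in RPF, where 2.19% of all transcripts were called, 3 in RNA (5.02%) and 0 in RPF/RNA (0%), shares near those of all transcripts. Of its 10 further target genes, 9 had a positive RPF fold change, beside 50.9% of all transcripts, with a median of 0.20 on the log2 scale, and 0 were called.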

How the data were processed

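The authors deposited read counts per transcript. Per the methods, single whole embryos were lysed and footprinted with RNases. Reads were trimmed and deduplicated with UMI-tools, FASTX-Toolkit and cutadapt, cleared of rRNA, tRNA and snRNA with bowtie2, and aligned to canonical transcripts (GRCm38, mm10), of which each gene has 1. RPF counts cover coding sequence without the first 15 and last 5 codons, RNA counts the entire transcript. Of the 22467 transcript identifiers, 21976 matched GENCODE M21 in the same version and 477 in another.

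RPF and RNA libraries were TMM-normalized separately. The 12576 transcripts above 0.75 CPM in at least 3 RPF libraries were tested with edgeR 4.0.16 (R 4.3.3; quasi-likelihood, genotype as the factor), with Benjamini-Hochberg adjustment over all of them and an FDR threshold of 0.1. RPF/RNA was the genotype by library interaction. Alternatives used DESeq2 1.42.0, limma 3.58.1 (voom), sva 3.50.0, RLE factors, other filters, a Y-linked covariate, blocks and the omission of each embryo. The study's methods name voom, limma, sva and locfdr for this step, without a stated design. Of the alternatives, limma-voom with surrogate variables is thus the nearest to the study's own approach. The pipeline was tested on simulated data. RPF and RNA libraries of 1 embryo deviated together from their group means (r = 0.169 to 0.382 over 12576 transcripts), and the methods state that both came from the same embryo. Values per embryo are CPM. Log2 RPF/RNA per embryo used a prior count of 2.

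Values were given in every embryo for members at an FDR below 0.1 or an unadjusted p below 0.05 in any measurement, for Smad4 and Tgfbr1, and for the most RPF-dense member of each role, and of the wider list the called genes were named. The values of Smad2, Smad3 and the untested members were added after they were seen. The members and lists were chosen with earlier results of these data known. Replicates are separate embryos from several litters.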

Additional observations from a re-analysis of the deposited data

How the results depend on the processing

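RPF calls over all transcripts were 276, and became 22 with the Y-linked covariate and 1306 with limma-voom and surrogate variables. Among the members the single RPF call became 0 with DESeq2, filterByExpr, limma-voom and the Y-linked covariate, and 5 with surrogate variables. Leaving out each embryo in turn gave 4 to 1449 RPF calls over all transcripts and 0 to 7 among members, the highest values without LOF replicate 2 and the lowest over all transcripts without WT replicate 2. RNA calls (631 in all, 1 among members) became 35 and 0 with the Y-linked covariate, and 138 to 594 and 0 to 1 with an embryo left out, lowest without WT replicate 1, the member called being Tgfb2 without LOF replicate 3, Tgfb1 without LOF replicate 1, Fst without LOF replicate 2 and Bmp2 without WT replicate 3. RPF/RNA calls (0) became 4 over all transcripts with DESeq2 and 0 to 26 with an embryo left out, 26 without LOF replicate 2, and stayed 0 among members under every alternative. The causes were not tested.

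Among Tgfbr1 and the 6 members with an unadjusted p below 0.05 in RPF/RNA, the sign of that difference changed for Twsg1 with the Y-linked covariate (0.01) and for Tgfbr1 with surrogate variables (0.02) and without LOF replicate 1 (0.03), where leaving out each embryo in turn gave Tgfbr1 values from -0.18 to 0.03. RLE in place of TMM factors changed the sign of 0 of the 38 members in RPF, in RNA and in RPF/RNA, the Y-linked covariate that of 9, 7 and 13, and surrogate variables that of 3, 2 and 8. Leaving out each embryo changed the sign of 1 to 5 members in RPF, 2 to 6 in RNA and 0 to 7 in RPF/RNA.

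The replicate numbers of WT and LOF/LOF embryos mark different animals. Their deviations correlated by -0.0831 to 0.0133 in RPF and -0.098 to 0.0941 in RNA. With the replicate block there were 313 RPF, 528 RNA and 0 RPF/RNA calls, and among members 1 (Tdgf1), 1 (Tgfb1 in place of Tgfb2) and 0. The embryo block of RPF/RNA changed no call. With 3 embryos per genotype the median SE over the members was 0.12 in RPF and 0.14 in RPF/RNA, which limits the size of difference that could be called.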
